A study of Homo sapiens with 12 samples.

Results

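MHC class I presentation genes were followed in 2 EGFR-mutant non-small cell lung cancer lines exposed to EGFR inhibitors. The set holds 9 of the 60591 genes in the count table, taken by symbol, namely HLA-B, HLA-C, HLA-E, B2M, TAP1, TAP2, PSMB8, PSMB9 and NLRC5, and all 9 passed the expression filter that left 19108 genes for testing. PC9 and H1650 are established lines that share the EGFR delE746-A750 deletion. The study compared them as a sensitive (PC9) and a less sensitive (H1650) line, and the labels give wild-type as the genotype of both. Cells of each line were collected at T0 (0.1% DMSO, 0 h), after 36 h with 10 μM erlotinib, a first-generation EGFR inhibitor, or after 36 h with 0.1 μM osimertinib, a third-generation inhibitor. Polyadenylated RNA was sequenced in 2 libraries per group, 12 libraries in all. No 36 h vehicle group was analysed here, so an effect of drug and an effect of 36 h in culture cannot be told apart in any comparison with T0. The study describes its RNA-seq replicates as biological, the labels say no more of them, and p-values measure the spread between these libraries.

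Class I molecules display peptides from proteins made inside the cell to cytotoxic T cells. The proteasome cuts the proteins, the TAP1 and TAP2 transporter carries the peptides into the endoplasmic reticulum, and a peptide is loaded onto a heavy chain paired with β2-microglobulin. Interferon is the best known inducer of the pathway: it exchanges the catalytic subunits of the proteasome for the immunoproteasome subunits PSMB8 and PSMB9 and raises NLRC5, a transcriptional coactivator that acts on class I promoters.

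Library totals ran from 17961765 to 26346187 reads (median 21581420.5), and mitochondrial transcripts took 4.36% to 5.36% of them at T0 and 5.77% to 7.20% with drug, so that every treated library lay above every T0 library. The part of that difference in the comparisons with T0 was not tested. Levels are given as normalized CPM, read counts scaled by library size and TMM factor, and 3 reads, the limit used for a count of 0, correspond to 0.116 to 0.168 normalized CPM. The epithelial markers EPCAM, KRT8, KRT18, KRT19 and CDH1 were abundant in every library, with summed levels of 8020 to 8072 normalized CPM in PC9 at T0, 5940 to 5948 with erlotinib and 8454 to 9156 with osimertinib, and of 6260 to 6528, 5166 to 5202 and 7954 to 8628 in the same groups of H1650. Of 5 leukocyte markers, 2 passed the filter, and the pan-leukocyte gene PTPRC had at most 5 reads and CD3E at most 4 reads in any library. The summed leukocyte level was 8.62 to 9.23 normalized CPM in PC9 at T0, 1.72 to 2.11 with erlotinib and 2.87 to 4.15 with osimertinib, and 3.20 to 3.50, 2.19 to 3.04 and 3.92 to 4.73 in H1650. All 3 endothelial markers passed the filter, and their summed level was 2.42 normalized CPM in both PC9 libraries at T0, 3.397 to 3.762 with erlotinib and 4.82 to 5.55 with osimertinib, and 0.193 to 0.420, 0.774 to 1.12 and 0.955 to 1.56 in H1650. Within that list VWF rose in PC9 from 3 reads per library at T0 to between 18 and 48 with drug and CDH5 from 13 and 14 reads to between 57 and 62, whereas PECAM1 fell. Of 4 fibroblast markers, 2 passed the filter. COL1A1 had 214 to 968 reads per library, and COL3A1 had 0 reads in PC9 and 137 to 441 in H1650. COL1A2 had at most 3 reads and DCN at most 1 read in any library. The fibroblast sums were 18.3 to 21.1 normalized CPM in PC9 at T0, 20.4 to 24.1 with erlotinib and 36.8 to 44.9 with osimertinib, and 24.2 to 24.9, 16.7 to 18.3 and 32.5 to 34.7 in H1650. The part of these marker changes in the members' values was not tested. The samples are cultures of single established lines, and LAPTM5 alone gave 8.02 and 8.19 normalized CPM of the PC9 leukocyte sum at T0. Fewer cells of a kind and less RNA per cell cannot be told apart in such bulk samples.

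The members lie at 3 places in the genome (GRCh38, GENCODE 29). On chromosome 6, within the major histocompatibility complex, are HLA-E (chr6:30489467-30494205, plus strand), HLA-C (chr6:31268749-31272130, minus), HLA-B (chr6:31269491-31357188, minus), TAP2 (chr6:32821833-32838780, minus), PSMB8 (chr6:32840717-32844703, minus), PSMB9 (chr6:32844136-32859585, plus) and TAP1 (chr6:32845209-32853978, minus). B2M is on chromosome 15 (chr15:44711487-44718877, plus) and NLRC5 on chromosome 16 (chr16:56989485-57083531, plus). All are protein-coding. The exons of several members overlap those of a neighbor. TAP2 shares 32.3% of its exon bases with AL669918.1 on the same strand, PSMB8 shares 20.6% with PSMB8-AS1 on the opposite strand, and HLA-B shares 17.8% with the pseudogene AL671883.2 on the opposite strand. How reads in such stretches were assigned is not given in the sources used here, nor is the strand setting. AL669918.1 had 0 or 1 read in every library, AL671883.2 had at most 20 reads, and PSMB8-AS1 had 12 to 74 reads, whereas HLA-B had at least 712 reads and PSMB8 at least 672 in any library.

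Heavy-chain genes are close relatives, and reads from identical stretches can be split or dropped in counting. Of the distinct 50-base stretches in the longest reference transcript, 2.54% in HLA-B, 6.39% in HLA-C, 5.13% in HLA-E, 1.07% in TAP1 and 35.8% in TAP2 also occur in a transcript of another gene. B2M, PSMB8, PSMB9 and NLRC5 had no such stretch. The TAP2 share includes exon bases that TAP2 and AL669918.1 hold at the same genomic place, so it does not measure relatedness alone. The lines' own HLA alleles were not examined, and the HLA-B, HLA-C and HLA-E counts are therefore uncertain in a way that the spread between libraries does not show.

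RefSeq promoter windows of 300 bases, from 250 bases before to 50 bases after an annotated start (GRCh38.p14), were matched for 7 of the 9 members, with 9 windows in all. HLA-E and NLRC5 had no entry. The windows shown are those of a heavy chain, of its partner B2M, of the head-to-head pair TAP1 and PSMB9, and of TAP2, whose transcript level moved against the others in PC9. They are written 5′ to 3′ along the gene. Capitals mark the core of an interferon-stimulated response element (GAAA, any 2 bases, GAAA), the TGACG core of a CRE site and the CCAAT letters of a Y box, on either strand.
HLA-B (chr6:31357130-31357429, minus strand): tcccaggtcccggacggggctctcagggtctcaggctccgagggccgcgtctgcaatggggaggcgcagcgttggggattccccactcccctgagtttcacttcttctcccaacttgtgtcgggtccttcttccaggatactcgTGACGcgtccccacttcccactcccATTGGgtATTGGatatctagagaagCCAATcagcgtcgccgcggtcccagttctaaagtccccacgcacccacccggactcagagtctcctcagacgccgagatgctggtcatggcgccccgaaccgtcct
B2M (chr15:44711267-44711566, plus strand): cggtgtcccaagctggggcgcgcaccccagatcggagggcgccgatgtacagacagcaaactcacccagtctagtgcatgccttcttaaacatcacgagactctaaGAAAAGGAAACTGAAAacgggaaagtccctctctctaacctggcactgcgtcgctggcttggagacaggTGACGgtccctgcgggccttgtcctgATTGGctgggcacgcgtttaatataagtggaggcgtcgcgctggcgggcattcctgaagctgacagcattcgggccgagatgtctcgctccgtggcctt
TAP1, first window (chr6:32853655-32853954, minus strand): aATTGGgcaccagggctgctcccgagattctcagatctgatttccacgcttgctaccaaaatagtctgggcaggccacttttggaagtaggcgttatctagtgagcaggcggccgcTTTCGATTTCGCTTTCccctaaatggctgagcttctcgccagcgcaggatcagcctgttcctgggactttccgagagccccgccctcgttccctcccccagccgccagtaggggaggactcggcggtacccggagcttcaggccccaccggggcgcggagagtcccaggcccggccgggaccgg
PSMB9 (chr6:32853942-32854241, plus strand): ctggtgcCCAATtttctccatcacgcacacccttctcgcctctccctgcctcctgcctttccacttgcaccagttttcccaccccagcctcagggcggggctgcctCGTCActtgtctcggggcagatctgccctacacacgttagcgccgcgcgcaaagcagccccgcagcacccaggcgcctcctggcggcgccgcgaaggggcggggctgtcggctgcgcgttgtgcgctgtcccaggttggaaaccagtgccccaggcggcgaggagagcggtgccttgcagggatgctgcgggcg
TAP2 (chr6:32838690-32838989, minus strand): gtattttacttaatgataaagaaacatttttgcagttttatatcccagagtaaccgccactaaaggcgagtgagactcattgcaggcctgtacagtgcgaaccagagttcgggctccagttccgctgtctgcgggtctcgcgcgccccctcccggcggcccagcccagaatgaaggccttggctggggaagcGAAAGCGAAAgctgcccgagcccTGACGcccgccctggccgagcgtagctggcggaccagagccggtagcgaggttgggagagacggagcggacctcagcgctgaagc

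The TAP1 and PSMB9 windows run away from each other and overlap at their upstream ends, so that a short stretch belongs to both. With positions counted from the annotated start as 0, B2M held 2 overlapping response-element cores from -144 to -129, the first TAP1 window held 2 overlapping cores from -134 to -119 on the opposite strand, and TAP2 held 1 core from -58 to -49. A second PSMB8 window held 1 core from -4 to 5 on the opposite strand. The core was thus present in 4 of the members' 9 windows, against 3.57% of all 35116 windows in the table. No exact match to this core was found in the HLA-B, HLA-C and PSMB9 windows, and looser forms of the element were not searched. The TGACG letters were found in 6 of the 9 windows, against 24.6% of all windows, and CCAAT in 5 of the 9, against 34.6%. The CCAAT letters of the first TAP1 window and those of the PSMB9 window lie in the stretch the windows share and are the same genomic bases, chr6:32853949-32853953, counted in both. The letters of a gamma-activated site, TTCNNNGAA, were found in 2 of the 9 windows, the second of PSMB8 and the second of TAP1, against 7.66% of all windows. A loose NF-κB pattern (GGGA, any 4 bases, CC) was found in 4 of the 9, against 25.6%, with overlapping matches on both strands at 1 place each in HLA-B and B2M. Patterns of different kinds shared a base only in HLA-C, where a Y box from -192 to -188 met an NF-κB match from -188 to -179. A match of letters describes the window and does not show that a factor binds there.

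**Figure D1:**
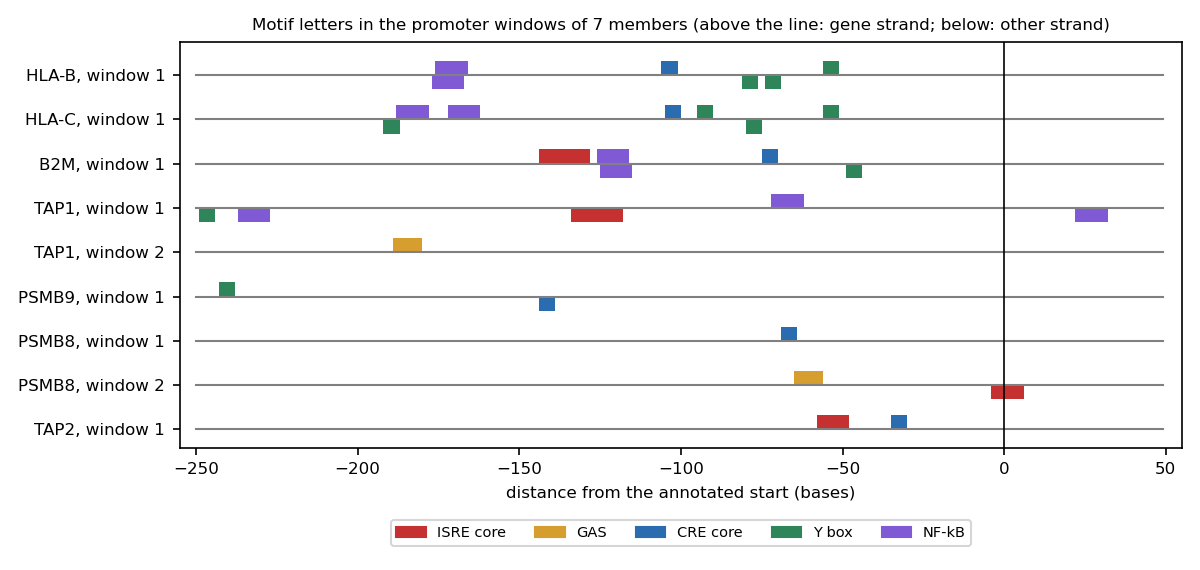
Positions of the 5 letter patterns in the 9 promoter windows of 7 members, by distance from the annotated start in bases (horizontal axis, start at 0), with 1 line per window, blocks above the line for the gene's strand and below it for the other strand. Response-element cores (red) appear for B2M, TAP1, TAP2 and PSMB8, and the HLA-B and HLA-C windows hold the CRE core (blue) at nearly the same distance, from -106 and -105.

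The classical heavy chain HLA-B, which binds the displayed peptide, was low in PC9 and rose with both drugs. Its level was 35.9 and 35.9 normalized CPM in the PC9 libraries at T0, 86.1 and 90.1 with erlotinib, and 97.9 and 105.7 with osimertinib. H1650 held 236.7 and 217.0 at T0, 275.7 and 258.0 with erlotinib, and 379.0 and 319.4 with osimertinib. None of the 6 groups overlapped, and every H1650 library lay above every PC9 library. A lack of overlap was common here for any gene. For erlotinib against T0, 42.5% of all tested genes lay apart and higher in PC9 and 36.2% lower, and 33.1% and 32.5% in H1650. For H1650 against PC9 at T0 the shares were 43.2% and 40.8%. The log2 fold change of HLA-B in PC9 was 1.30 ± 0.0879 (SE, adjusted p = 3.46e-13) with erlotinib and 1.50 ± 0.0883 (adjusted p = 1.31e-14) with osimertinib, by edgeR's quasi-likelihood fit, with p-values adjusted after Benjamini and Hochberg over all tested genes. The H1650 fold change was 0.23 ± 0.079 (adjusted p = 0.0204) with erlotinib and 0.62 ± 0.0789 (adjusted p = 3.85e-07) with osimertinib. The H1650 erlotinib call was lost without H1650 T0 replicate 2 (0.17, adjusted p = 0.213), without H1650 erlotinib replicate 1 (0.19, adjusted p = 0.156) and with DESeq2 (0.21, adjusted p = 0.0538).

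HLA-C, a further classical heavy chain, had the highest level of the 3 per length of transcript in every group, and it rose in all 4 drug comparisons. The PC9 libraries held 256.2 and 239.9 normalized CPM at T0, 337.9 and 322.2 with erlotinib, and 376.0 and 383.1 with osimertinib. The H1650 libraries held 915.5 and 787.0, then 1173 and 1032, then 1451 and 1187. The groups did not overlap, although the osimertinib libraries of H1650 were the farthest apart of the 6 pairs in normalized CPM. PC9 cells had a log2 fold change of 0.41 ± 0.0874 (SE, adjusted p = 0.000179) with erlotinib and of 0.61 ± 0.0876 (adjusted p = 6.39e-07) with osimertinib. Those of H1650 were 0.37 ± 0.0857 (adjusted p = 0.000973) and 0.63 ± 0.0859 (adjusted p = 1.15e-06).

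HLA-E is a non-classical heavy chain recognized by inhibitory receptors of natural killer cells. It rose in all 4 drug comparisons and reached like levels in both lines. In PC9 it was 114.6 and 115.6 normalized CPM at T0, 262.9 and 259.3 with erlotinib, and 292.7 and 329.1 with osimertinib. The H1650 libraries had 157.4 and 145.4, then 247.5 and 233.2, then 344.0 and 293.7. The osimertinib libraries of the 2 lines overlapped, and all other neighbors in the order of levels were apart. Erlotinib gave a log2 fold change of 1.18 ± 0.0807 (SE, adjusted p = 3.91e-13) in PC9 and 0.67 ± 0.0795 (adjusted p = 1.32e-07) in H1650, and osimertinib gave 1.43 ± 0.0811 (adjusted p = 5.83e-15) in PC9 and 1.07 ± 0.0796 (adjusted p = 2.30e-11) in H1650.

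B2M, the light chain shared by all of these heavy chains, rose in both lines. Its level in PC9 was 324.6 and 326.3 normalized CPM at T0, 515.1 and 557.0 with erlotinib, and 561.2 and 605.6 with osimertinib. H1650 cells had 627.4 and 623.5, then 878.8 and 907.2, then 1128 and 1073. No groups overlapped, and the highest PC9 library lay just under the lower H1650 library at T0. Erlotinib gave a log2 fold change of 0.72 ± 0.0686 (SE, adjusted p = 4.07e-10) in PC9 and 0.51 ± 0.0679 (adjusted p = 7.12e-07) in H1650, and osimertinib gave 0.84 ± 0.0688 (adjusted p = 1.63e-11) in PC9 and 0.82 ± 0.0681 (adjusted p = 2.28e-10) in H1650.

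**Figure D2:**
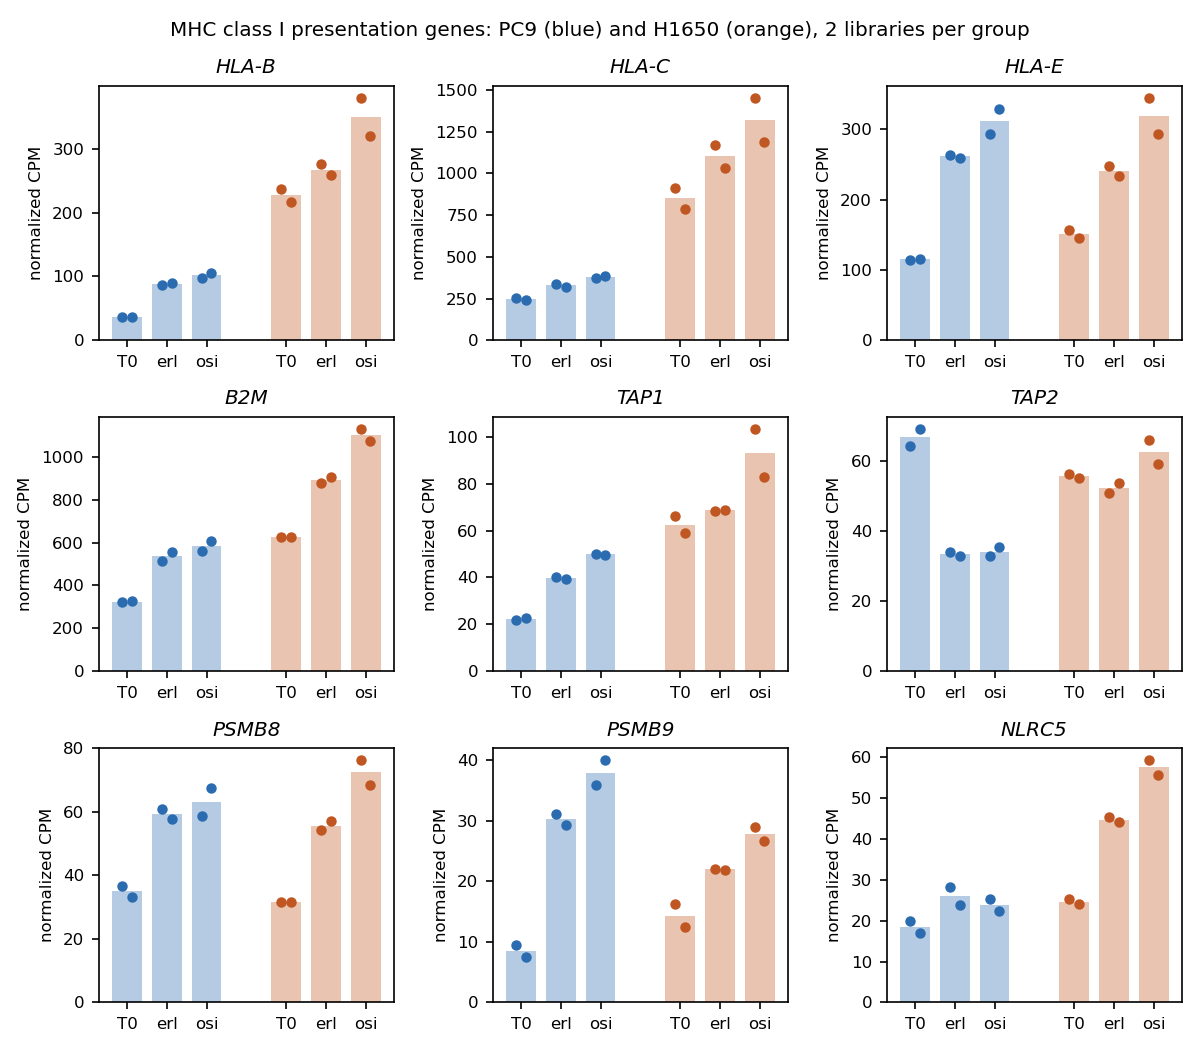
Normalized CPM (vertical axes, from 0) of the 9 members in the 6 groups, T0, erlotinib (erl) and osimertinib (osi) in PC9 (blue) and H1650 (orange). Points are the 2 libraries of a group and bars their mean. All members but TAP2 have their lowest PC9 level at T0, while TAP2 has its highest there, at 64.5 and 69.3.

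The subunits of the peptide transporter moved in opposite directions in PC9. TAP1 was 22.0 and 22.6 normalized CPM in PC9 at T0, 40.1 and 39.2 with erlotinib, and 49.99 and 49.78 with osimertinib. The H1650 levels were 66.0 and 58.8, then 68.2 and 68.9, then 103.2 and 82.7. The PC9 groups were far apart relative to their spread, whereas the H1650 erlotinib libraries lay just above T0. TAP1 rose in PC9 by a log2 fold change of 0.83 ± 0.101 (adjusted p = 4.11e-08) with erlotinib and 1.16 ± 0.101 (adjusted p = 5.73e-11) with osimertinib. In H1650 it rose with osimertinib (0.58 ± 0.0902, adjusted p = 9.64e-06), and its value with erlotinib was 0.14 ± 0.0912 (adjusted p = 0.257).

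TAP2, the partner of TAP1, was 64.5 and 69.3 normalized CPM in PC9 at T0, 34.2 and 33.0 with erlotinib, and 33.1 and 35.4 with osimertinib. H1650 libraries held 56.3 and 55.3, then 50.9 and 53.7, then 66.1 and 59.1. The drug-treated PC9 libraries lay below all 8 other libraries, and those of the 2 drugs overlapped. In PC9 it fell by 0.99 on the log2 scale with erlotinib (SE 0.086, adjusted p = 5.75e-11) and by 0.97 with osimertinib (SE 0.087, adjusted p = 1.22e-10). In H1650 its log2 fold change was -0.092 ± 0.0843 (adjusted p = 0.428) with erlotinib and 0.17 ± 0.0833 (adjusted p = 0.128) with osimertinib. TAP2 was the only member called lower than T0 in any drug comparison.

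Per length of transcript, the level of TAP1 relative to TAP2 turned over in PC9. Dividing by the longest transcript, TAP1 was 7.53 ± 0.138 (SD, n = 2) normalized CPM per kilobase in PC9 at T0 and TAP2 was 11.8 ± 0.594, a ratio of 0.640 ± 0.0206. With erlotinib the ratio was 2.27 ± 0.0262 and with osimertinib 2.80 ± 0.145. In H1650 the ratio was already 2.15 ± 0.146 at T0, and it was 2.52 ± 0.0748 with erlotinib and 2.84 ± 0.224 with osimertinib. The treated PC9 ratios fell within the span of the H1650 ratios. With the union of all exons as length, every ratio was lower (0.443 in PC9 at T0 and 1.57 to 1.96 in the other groups outside H1650 T0, which had 1.48), and the order within PC9 was the same. This ratio was chosen after its values were seen.

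**Figure D3:**
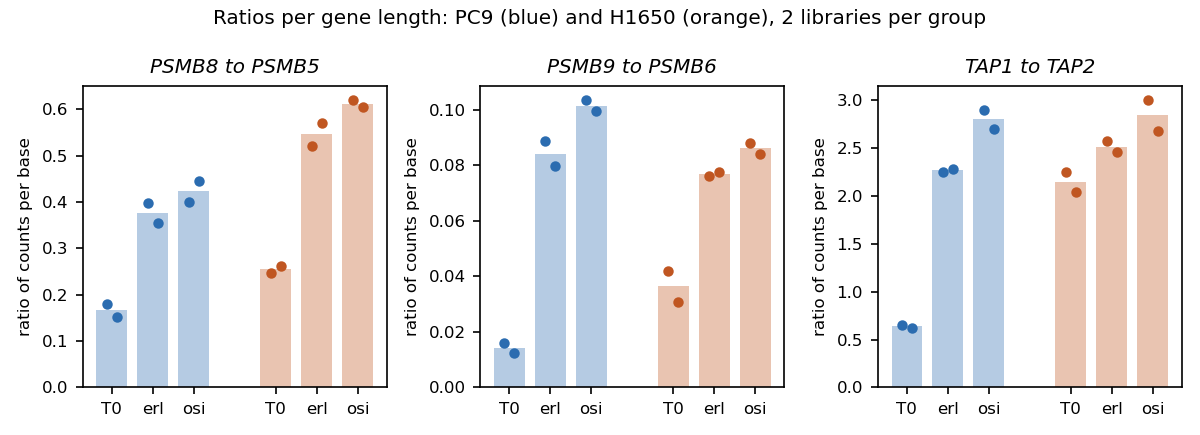
Ratios of counts per base of the longest transcript (vertical axes, from 0) for PSMB8 to PSMB5, PSMB9 to PSMB6 and TAP1 to TAP2, in PC9 (blue) and H1650 (orange) at T0 and after erlotinib (erl) or osimertinib (osi). Points are the 2 libraries and bars their mean. The TAP1 to TAP2 ratio of PC9 is under 1 at T0, at 0.640, and above 2 with either drug.

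The immunoproteasome subunits rose in every drug comparison. PSMB8 replaces PSMB5, the chymotrypsin-like subunit. It was 36.8 and 33.2 normalized CPM in PC9 at T0, 60.9 and 57.6 with erlotinib, and 58.8 and 67.6 with osimertinib, and in H1650 it was 31.6 and 31.6, then 54.2 and 57.1, then 76.2 and 68.5. The 2 drugs overlapped in PC9 and were apart in H1650, and in both lines each drug was apart from T0. Erlotinib gave a log2 fold change of 0.76 ± 0.0909 (SE, adjusted p = 3.10e-08) in PC9 and 0.82 ± 0.0914 (adjusted p = 4.52e-08) in H1650, and osimertinib gave 0.85 ± 0.0915 (adjusted p = 4.00e-09) in PC9 and 1.20 ± 0.0904 (adjusted p = 3.49e-11) in H1650.

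PSMB9, which replaces PSMB6, the caspase-like subunit, had the largest log2 fold change of the members in PC9 with either drug. It was 9.48 and 7.45 normalized CPM in PC9 at T0, 31.1 and 29.4 with erlotinib, and 35.9 and 40.03 with osimertinib. In H1650 it was 16.3 and 12.4, then 22.1 and 21.9, then 28.9 and 26.6. No groups overlapped, and the order of the lines turned over, with PC9 below H1650 at T0 and above it with either drug. Erlotinib gave a log2 fold change of 1.84 ± 0.134 (SE, adjusted p = 1.52e-12) in PC9 and 0.62 ± 0.127 (adjusted p = 0.00027) in H1650, and osimertinib gave 2.16 ± 0.133 (adjusted p = 3.73e-14) in PC9 and 0.96 ± 0.124 (adjusted p = 5.59e-07) in H1650.

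The constitutive subunits that PSMB8 and PSMB9 replace moved the other way. PSMB5 fell by 0.42 on the log2 scale in PC9 with erlotinib, by 0.50 with osimertinib, and by 0.28 in H1650 with erlotinib, and PSMB6 fell by 0.72, 0.66 and 0.47 in the same comparisons and by 0.30 in H1650 with osimertinib. The PSMB5 call in H1650 was lost without H1650 T0 replicate 1 (-0.24, adjusted p = 0.0707) and without H1650 erlotinib replicate 2 (-0.26, adjusted p = 0.0511). PSMB5 in H1650 with osimertinib had a log2 fold change of -0.0682 (adjusted p = 0.550). Per length of transcript, the ratio of PSMB8 to PSMB5 went from 0.167 ± 0.0194 (SD, n = 2) at T0 to 0.377 ± 0.0312 with erlotinib and 0.423 ± 0.0318 with osimertinib in PC9, and from 0.255 ± 0.0105 to 0.546 ± 0.0353 and 0.611 ± 0.0107 in H1650. The ratio of PSMB9 to PSMB6 went from 0.0143 ± 0.0025 to 0.0842 ± 0.00634 and 0.102 ± 0.0027 in PC9, and from 0.0364 ± 0.00798 to 0.0769 ± 0.000967 and 0.0862 ± 0.00271 in H1650. Treated and T0 libraries were apart for both ratios in both lines. By mean read counts per base, with either the longest transcript or the union of exons as length, the constitutive subunit was the higher of each pair in every group. For PSMB8 and PSMB5 that order depends on dividing by length. Before it, mean PSMB8 and PSMB5 were 55.6 and 55.6 normalized CPM in H1650 with erlotinib, and 72.4 and 64.5 with osimertinib. Which transcripts the lines express was not examined.

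NLRC5, the class I coactivator, rose in all 4 drug comparisons. It was 19.9 and 16.9 normalized CPM in PC9 at T0, 28.4 and 23.9 with erlotinib, and 25.2 and 22.4 with osimertinib. In H1650 it was 25.4 and 24.0, then 45.3 and 44.0, then 59.3 and 55.7. The PC9 erlotinib, PC9 osimertinib and H1650 T0 libraries overlapped one another, whereas the treated H1650 libraries were above all others. Erlotinib gave a log2 fold change of 0.50 ± 0.109 (SE, adjusted p = 0.000237) in PC9 and 0.86 ± 0.103 (adjusted p = 1.49e-07) in H1650, and osimertinib gave 0.38 ± 0.112 (adjusted p = 0.00463) in PC9 and 1.22 ± 0.102 (adjusted p = 2.17e-10) in H1650. The PC9 osimertinib call was lost without PC9 T0 replicate 2 (0.26, adjusted p = 0.110) and without PC9 osimertinib replicate 1 (0.29, adjusted p = 0.0861).

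In counts, 8 of the 9 members rose and TAP2 fell in PC9 with erlotinib, where 32.7% of all tested genes were called higher and 29.1% lower. The count was the same with osimertinib in PC9, where 32.7% of tested genes were called higher and 28.7% lower. In H1650, 7 members rose and none fell with erlotinib (18.0% of tested genes higher, 18.5% lower), and 8 rose and none fell with osimertinib (17.8% higher, 17.9% lower). The median log2 fold change over the members was 0.76, 0.85, 0.51 and 0.82 in these comparisons, beside medians over all tested genes of 0.0743, 0.0644, 0.00508 and 0. With 1 library left out in turn, the members' medians ran from 0.72 to 0.81, 0.78 to 0.95, 0.43 to 0.54 and 0.76 to 0.85. The 2 drugs share their T0 libraries within each line.

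Subtracting the log2 fold change in PC9 from that in H1650, here called the drug-by-line difference, asks whether the same drug moved a gene by different amounts in the sensitive and the less sensitive line. With erlotinib it was called lower than 0 for HLA-B (-1.06 ± 0.118, SE), HLA-E (-0.51 ± 0.113), TAP1 (-0.69 ± 0.136) and PSMB9 (-1.21 ± 0.185), and higher for TAP2 (0.90 ± 0.120). That is 4 members lower and 1 higher, where 19.8% of tested genes were called lower and 21.1% higher. With osimertinib it was lower for HLA-B (-0.88 ± 0.118), HLA-E (-0.36 ± 0.112), TAP1 (-0.59 ± 0.135) and PSMB9 (-1.21 ± 0.183), and higher for TAP2 (1.13 ± 0.120), PSMB8 (0.34 ± 0.128) and NLRC5 (0.84 ± 0.151), where 20.5% of tested genes were called lower and 21.5% higher. The members thus fell on both sides, with a median difference of -0.21 with erlotinib and -0.0265 with osimertinib, beside -0.0325 and -0.0257 over all tested genes. The osimertinib median had no stable sign, since it ran from -0.12 without H1650 osimertinib replicate 1 to 0.0328 without PC9 osimertinib replicate 2 and was 0.0492 without a filter.

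HLA-C and B2M were not called for either drug, with drug-by-line differences of -0.0387 ± 0.122 and -0.21 ± 0.0962 for erlotinib and 0.0185 ± 0.122 and -0.0265 ± 0.0962 for osimertinib (SE). The B2M difference with erlotinib (adjusted p = 0.0903 by edgeR) was called with upper quartile scaling (-0.29, adjusted p = 0.00789) and with the filter of 10 or more counts per library (-0.23, adjusted p = 0.0329). With erlotinib, PSMB8 (0.0565 ± 0.129) and NLRC5 (0.35 ± 0.150, adjusted p = 0.0617) were not called either, and NLRC5 was called without PC9 T0 replicate 2 (0.47, adjusted p = 0.0316) and without PC9 erlotinib replicate 1 (0.48, adjusted p = 0.0178). The HLA-E difference with osimertinib was lost without PC9 osimertinib replicate 2 (-0.27, adjusted p = 0.0803), without H1650 T0 replicate 1 (-0.29, adjusted p = 0.0760) and without H1650 osimertinib replicate 2 (-0.23, adjusted p = 0.137), by edgeR's quasi-likelihood test. The PSMB8 difference with osimertinib was lost without PC9 T0 replicate 1 (0.27, adjusted p = 0.162), PC9 osimertinib replicate 1 (0.25, adjusted p = 0.187), H1650 T0 replicate 1 (0.36, adjusted p = 0.0583), H1650 T0 replicate 2 (0.35, adjusted p = 0.0724) or H1650 osimertinib replicate 1 (0.28, adjusted p = 0.141), with upper quartile scaling (0.29, adjusted p = 0.0647) and with DESeq2 (0.34, adjusted p = 0.0649).

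**Figure D4:**
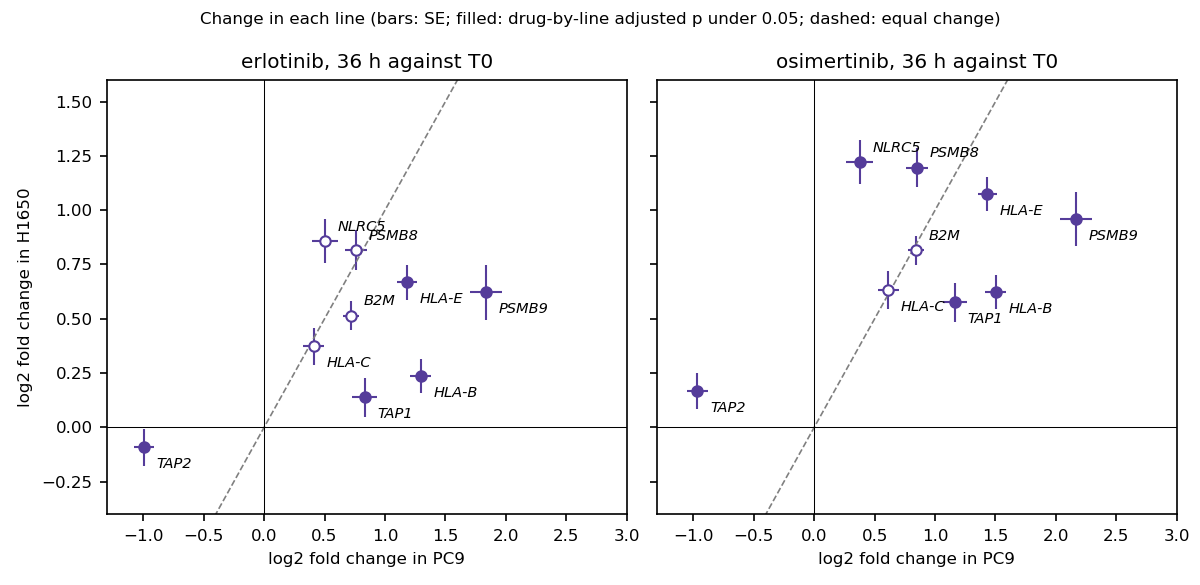
Log2 fold change of each member against T0 in PC9 (horizontal axis) and in H1650 (vertical axis) for erlotinib (left) and osimertinib (right). Bars are SE, filled points have a drug-by-line adjusted p under 0.05, and the dashed line marks equal change. HLA-B, HLA-E, TAP1 and PSMB9 lie to the right of the line, NLRC5 lies to its left, and TAP2 stands alone at -0.99 and -0.97 in PC9.

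At T0, before drug, 7 members were higher in H1650 than in PC9, TAP2 was lower and PSMB8 was not called, where 35.8% of tested genes were called higher and 33.8% lower. The log2 difference, H1650 minus PC9, was 2.66 ± 0.0884 for HLA-B (SE, adjusted p = 2.56e-20), 1.78 ± 0.089 for HLA-C (adjusted p = 3.00e-16) and 1.48 ± 0.0994 for TAP1 (adjusted p = 1.92e-13). It was smaller for B2M (0.94 ± 0.0688), PSMB9 (0.76 ± 0.141), NLRC5 (0.42 ± 0.110) and HLA-E (0.40 ± 0.0807), all with adjusted p at or under 0.00131. It was -0.26 ± 0.0834 for TAP2 (adjusted p = 0.00697), a call lost without PC9 T0 replicate 2 (-0.21, adjusted p = 0.0928), and -0.15 ± 0.0939 for PSMB8 (adjusted p = 0.169). The median over the members was 0.76, beside 0.0389 over all tested genes. With 1 library left out in turn, the median over the members ran from 0.53 to 0.95. The lines' own HLA alleles were not examined, and the p-values of HLA-B, HLA-C and HLA-E do not cover unequal counting of alleles between lines.

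Osimertinib and erlotinib were given at different doses, 0.1 and 10 μM, so the following values stand side by side and compare the treatments as given. In PC9, HLA-E (0.25 ± 0.0783, SE) and TAP1 (0.33 ± 0.0949) were higher with osimertinib and the other 7 members were not called, where 10.1% of tested genes were called higher. In H1650, 6 members were higher with osimertinib, where 5.02% of tested genes were called higher: HLA-B (0.39 ± 0.0787), HLA-E (0.41 ± 0.0785), B2M (0.30 ± 0.0676), TAP1 (0.44 ± 0.0902), PSMB8 (0.38 ± 0.0877) and NLRC5 (0.36 ± 0.0984). HLA-C (0.26 ± 0.0856, adjusted p = 0.0582), TAP2 (0.26 ± 0.0842, adjusted p = 0.0544) and PSMB9 (0.34 ± 0.121, adjusted p = 0.0866) were not called by edgeR's quasi-likelihood test over all groups, and all 3 were called when only the 2 groups compared entered the fit (adjusted p = 0.0230, 0.0408 and 0.0304). That fit also called PSMB9 in PC9 (0.31, adjusted p = 0.0302). The calls of the fit over all groups rested on single libraries. Without H1650 osimertinib replicate 1 none of the 9 members was called in H1650, with values of 0.26 for HLA-B (adjusted p = 0.118) and 0.27 for TAP1 (adjusted p = 0.159). In PC9 none was called without PC9 erlotinib replicate 2 or without PC9 osimertinib replicate 2, where HLA-E was 0.24 (adjusted p = 0.107) and 0.16 (adjusted p = 0.306), and 1 was called without the other library of either treatment. The median over the members was 0.20 in PC9 and 0.36 in H1650, beside 0.0036 and 0 over all tested genes.

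Levels of different genes were compared per length of the longest transcript. In PC9 at T0, B2M (135.4 ± 0.487 normalized CPM per kilobase, SD, n = 2) and HLA-C (132 ± 6.12) were highest, with overlapping libraries, followed by HLA-E (44.3 ± 0.275), HLA-B (23.2 ± 0.00448), PSMB8 (14.7 ± 1.07), TAP2 (11.8 ± 0.594), TAP1 (7.53 ± 0.138), PSMB9 (3.16 ± 0.535) and NLRC5 (2.70 ± 0.304). PSMB9 and NLRC5 also overlapped. With osimertinib in PC9, HLA-E (119.5 ± 9.91) was above HLA-B (65.8 ± 3.60) as at T0, whereas TAP2 (6.03 ± 0.294) now lay below TAP1 (16.9 ± 0.0494) and PSMB9 (14.2 ± 1.08). In H1650 at T0, HLA-C (452.8 ± 48.3) lay above B2M (260.3 ± 1.16), and HLA-B (146.6 ± 9.0) above HLA-E (58.2 ± 3.25). Which of HLA-C and B2M is higher depends on the length used, since with the union of exons HLA-C (98.95) exceeded B2M (53.5) in PC9 at T0 as well. With that length PSMB8 (10.0) and TAP2 (10.5) also changed places there.

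Across the 12 libraries, the log2 levels of the members were alike within 2 sets, read from the values themselves. Among HLA-B, HLA-C, B2M, TAP1 and NLRC5, Pearson r ran from 0.84 (HLA-B with NLRC5) to 0.98 (HLA-B with TAP1), and among HLA-E, PSMB8 and PSMB9 from 0.86 (PSMB8 with PSMB9) to 0.96 (HLA-E with PSMB9). Between these sets r was lower, from 0.23 (HLA-C with PSMB9) to 0.70 (HLA-E with B2M). For TAP2 it lay between -0.72 (with PSMB9) and 0.37 (with HLA-C). These values describe 12 libraries that share 2 lines and 3 conditions. Of 10248 tested genes outside the lists with a mean of at least 10 normalized CPM, the 6 with the pattern most like the mean of the members were HCP5, a long noncoding RNA gene of the class I region (r = 0.993), CAPG, a gelsolin-family actin-capping gene (0.986), POR, which encodes cytochrome P450 reductase (0.985), MOV10, an RNA helicase gene (0.983), LGALS3BP, which encodes a galectin-binding glycoprotein (0.978), and BEX3 (0.977). HCP5 had mean levels of 3.22 normalized CPM in PC9 at T0, 7.37 with erlotinib and 9.71 with osimertinib, and of 7.92, 14.2 and 20.9 in H1650.

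Other genes of the pathway were taken from lists of class I machinery. Their counts stand beside the shares of all tested genes called, 32.7% higher and 29.1% (erlotinib) or 28.7% (osimertinib) lower in PC9, and 18.0% or 17.8% higher and 18.5% or 17.9% lower in H1650. The 2 further heavy chains described, HLA-F and HLA-G, both rose in PC9 with either drug, and 1 of the 2 rose in H1650. HLA-G, named after its values were seen, had only 15 to 73 reads per library. HLA-F, a non-classical heavy chain, rose from 0.907 and 0.740 normalized CPM in PC9 at T0 to 5.33 and 4.57 with erlotinib and 7.21 and 7.96 with osimertinib, log2 fold changes of 2.58 and 3.19, and in H1650 it rose by 0.54 and 0.98. Among 7 peptide-loading and trimming genes, 3 rose and 4 fell in PC9 with erlotinib, 3 rose and 1 fell with osimertinib, 4 rose and 2 fell in H1650 with erlotinib, and 5 rose and 1 fell with osimertinib. The 3 of 7 that rose in PC9 are near the share of all tested genes. TAPBP, which encodes tapasin, the bridge between transporter and heavy chain, rose by 0.99 and 1.16 in PC9 and 0.27 and 0.57 in H1650. Its relative TAPBPL rose by 1.81 and 1.98 in PC9 and by 1.05 and 0.98 in H1650. CANX, the chaperone calnexin, fell in all 4 comparisons, with log2 fold changes of -0.52, -0.43, -0.52 and -0.43.

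Of 3 further immunoproteasome and PA28 genes, 2 rose and 1 fell in PC9 with either drug, and all 3 rose in H1650 with either drug. PSMB10, the remaining immunoproteasome subunit, was 4.34 and 4.99 normalized CPM in PC9 at T0, 22.8 and 21.3 with erlotinib and 25.2 and 24.3 with osimertinib, log2 fold changes of 2.24 and 2.41. In H1650 PSMB10 was 13.4 and 11.2, then 30.1 and 28.2, then 40.4 and 28.1, log2 fold changes of 1.25 and 1.48, and its osimertinib libraries straddled the erlotinib ones. PSME1, a subunit of the PA28 proteasome activator, rose by 0.92 and 0.94 in PC9 and by 0.96 and 1.05 in H1650. The 3 constitutive counterparts PSMB5, PSMB6 and PSMB7 all fell in PC9 with either drug and in H1650 with erlotinib, and 1 of 3 fell in H1650 with osimertinib. PSMB7, the counterpart of PSMB10, fell by 0.82 and 0.82 on the log2 scale in PC9 and by 0.28 in H1650 with erlotinib.

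Of 8 factors that bind class I promoters (RFX5, RFXAP, RFXANK, CREB1, ATF1 and the 3 NFY subunits), 2 rose and 2 fell in PC9 with erlotinib, 2 rose and 3 fell with osimertinib, and in H1650 3 and then 1 rose and none fell. The 2 of 8 that rose in PC9 are no more than the 32.7% of all tested genes called higher there. RFX5, which binds the X box together with NLRC5, rose in all 4 comparisons, by 1.16 and 1.56 in PC9 and 0.45 and 0.79 in H1650. Of 12 interferon signaling genes, 8 rose and none fell in PC9 with either drug, whereas in H1650 5 rose and 2 fell with either drug. JAK1 and IFNAR1, named after their values were seen, had means that moved opposite ways in the 2 lines. Mean JAK1 was 155.6 normalized CPM in PC9 at T0, then 283.8 with erlotinib and 309.7 with osimertinib. In H1650 it was 268.4, then 197.2 and 198.5. Mean IFNAR1 was 43.5, 49.5 and 52.9 in PC9, and 76.2, 63.8 and 62.8 in H1650. STAT2 rose by 2.25 and 2.67 in PC9 and by 0.99 and 0.98 in H1650, IRF1 by 1.87 and 2.22 and by 0.81 and 1.18, IRF2 by 0.78 and 0.99 and by 1.00 and 0.96, and IRF9 by 1.13 and 1.39 and by 0.95 and 0.76. The IRF9 call in H1650 with osimertinib was lost without H1650 T0 replicate 1 (0.70, adjusted p = 0.0656), without H1650 osimertinib replicate 2 (0.54, adjusted p = 0.177) and with DESeq2 (0.74, adjusted p = 0.0579), where the main test was that of edgeR.

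The interferon genes looked at were themselves at or near the limit of counting. Of 8 ligand genes, 2 passed the filter, IFNE and IFNL1, and neither was called in a drug comparison. IFNG and IFNK had 0 reads in all 12 libraries, which allows a level of up to 0.116 to 0.168 normalized CPM, depending on the library. IFNB1 had 0 reads in all 6 PC9 libraries and 2 to 9 reads in those of H1650, with 9 and 4 reads at T0, 2 and 9 with erlotinib and 2 and 3 with osimertinib. IFNL1 likewise had 0 reads in PC9, and in H1650 it had 4 and 11 reads, then 14 and 14, then 2 and 7. Of the 8 ligand genes, only IFNE and IFNA1 had any reads in PC9. IFNE was at 0.605 and 0.740 normalized CPM at T0 and 0.586 to 0.953 with drug. IFNA1 had 1 to 3 reads per library in PC9, no more than the 3 reads used as the limit. In H1650, IFNA1 had 0 to 5 reads per library, IFNL2 0 to 5 and IFNL3 1 to 6. Interferon genes outside these 8 are not covered here.

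**Figure D5:**
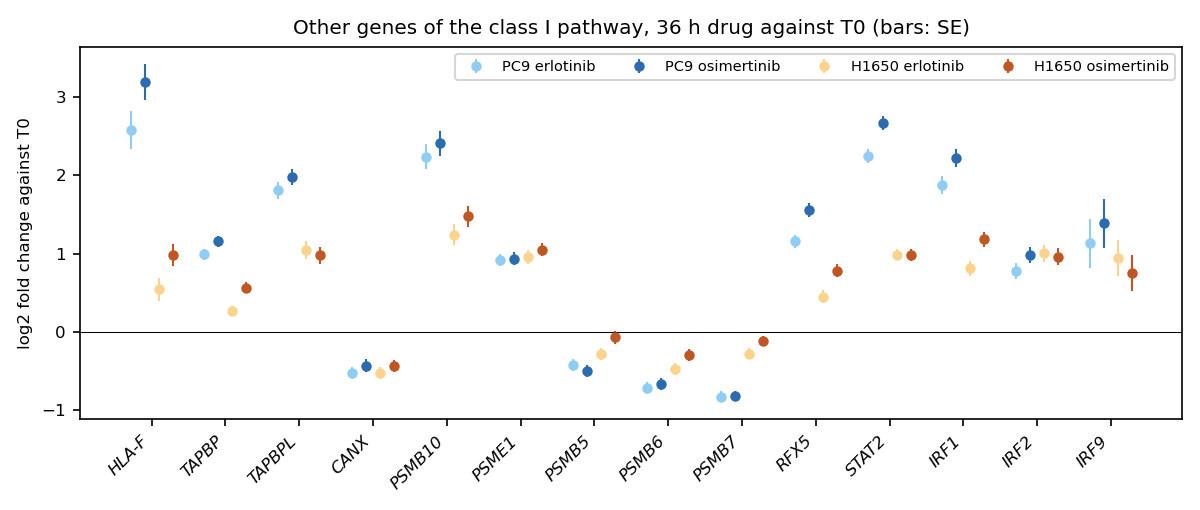
Log2 fold change against T0 (vertical axis, bars SE) of 14 named genes of the class I pathway outside the members, for erlotinib and osimertinib in PC9 (light and dark blue) and H1650 (light and dark orange). HLA-F, PSMB10, STAT2 and IRF1 have higher values in PC9, and CANX and the constitutive subunits lie below 0.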

How the data were processed

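Reads were processed by the authors with the DolphinNext pipeline, and the authors deposited raw counts per gene from featureCounts for 12 libraries, without normalization, with a length in bases for each gene. The submitters' processing notes name GRCh38 and DESeq2. The aligner, annotation version, strandedness and treatment of multi-mapping reads are not given in the sources used here. The deposited lengths matched GENCODE 29 for some members and not for others, so another annotation was used.

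Counts were analyzed in R 4.3.3 with edgeR 4.0.16 (filterByExpr, TMM, glmQLFit over all 6 groups, 6 residual and 20.7 prior degrees of freedom). Of 60591 genes, 19108 were tested and 41483 left out. Adjusted p under 0.05 (Benjamini-Hochberg over all tested genes) was called. Library totals ran from 17961765 to 26346187, and the SD of 2 libraries is itself imprecise. Replicates were grouped by their labels, and no replicate pair was counted as 1 library. Lengths came from GENCODE 29 transcripts and promoter windows from RefSeq (Python 3.11.15). On simulated counts of 17919 genes for PC9 erlotinib against T0, of 200 genes given a simulated log2 change of 1, 176 were recovered, with 11 false calls. For the erlotinib drug-by-line difference 159 of the 200 were recovered, with 9 false calls. In the data, 32.7% of tested genes were called higher and 29.1% lower in PC9 with erlotinib. The simulation changed far fewer genes, so it does not give the rate of false calls in the data.

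The members and lists were chosen with earlier results of these data known. Named list genes were PSMB5, PSMB6, PSMB7, IRF1, genes called alike in all 4 drug comparisons, and the 2 largest changes in each. Some genes of the lists are not reported here and were left out of the list counts. DESeq2 1.42.0, RLE and upper quartile scaling, 2 other filters, a replicate block, fits to the groups compared, leave-one-out fits and union-exon lengths were the alternatives.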

Additional observations from a re-analysis of the deposited data

Results flagged for a closer look

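The change from T0 differed between the lines, by the test of the difference itself, for 5 members with erlotinib and 7 with osimertinib. Of all tested genes, 19.8% were called lower and 21.1% higher with erlotinib. With osimertinib, 20.5% were called lower and 21.5% higher. The values are the log2 fold change in H1650 minus that in PC9, by edgeR's quasi-likelihood fit to 2 libraries per group. With erlotinib they were -1.06 for HLA-B, -0.51 for HLA-E, -0.69 for TAP1, 0.90 for TAP2 and -1.21 for PSMB9. With osimertinib they were -0.88 for HLA-B, -0.36 for HLA-E, -0.59 for TAP1, 1.13 for TAP2, 0.34 for PSMB8, -1.21 for PSMB9 and 0.84 for NLRC5. The HLA-E and PSMB8 calls with osimertinib were lost when certain single libraries were left out, and that of PSMB8 also with DESeq2. Both drugs share the T0 libraries of each line. Groups of 2 libraries were too small for a test of single outlying libraries.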

How the results depend on the processing

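Direction against T0 held for all 9 members in both lines under every alternative and with each library left out in turn. With 1 library left out, the number of members called with osimertinib over erlotinib ranged from 0 to 3 in PC9 (2 with all libraries) and from 0 to 8 in H1650 (6 with all). Under the other alternatives without the block it was 2 or 3 in PC9 and 6 to 9 in H1650, with 9 when only the groups compared were fitted. The number of all genes called in either direction changed with the setting too, also when a library was left out. It was 2630 of 15748 in PC9 and 1482 of 13070 in H1650 with DESeq2. When only the groups compared were fitted, it was 3243 of 16767 and 2055 of 16579. Drug-by-line differences close to 0 changed sign: PSMB8 with erlotinib (-0.0247 with upper quartile scaling, and -0.0150 to 0.13 over the left-out libraries), HLA-C with osimertinib (-0.0377 with upper quartile scaling, -0.0109 with at least 10 counts in every library, and -0.12 to 0.17), HLA-C with erlotinib (-0.14 to 0.0900) and B2M with osimertinib (0.0492 without a filter, and -0.0797 to 0.0328). Of the osimertinib against erlotinib values in PC9, TAP2 ran from -0.0230 to 0.0788 and PSMB8 from -0.0115 to 0.19. None of these was called. With the replicate number as a block, 5 members were called for osimertinib over erlotinib in PC9 (HLA-B, HLA-C and PSMB9 in addition) and 9 in H1650, 9 for H1650 osimertinib against T0 (TAP2 at 0.17, adjusted p = 0.0441) and 7 for the erlotinib drug-by-line difference (B2M and NLRC5 in addition), and in the other comparisons the count was as without it. Over all 19108 tested genes, the fit with the block called 4166 for osimertinib over erlotinib in PC9 and 2670 in H1650, in either direction. It called 7680 for H1650 osimertinib against T0 and 8467 for the erlotinib drug-by-line difference. The labels do not tie replicate numbers across groups, and the deviations of same-numbered libraries correlated between 0.000266 and 0.38 over 10294 genes. Within a line the correlations were all positive, 0.14 to 0.30 in PC9 and 0.12 to 0.29 in H1650, a hint from the data that same-numbered libraries deviate together, and with only 2 numbers per group the pairing was not established. With 2 libraries per group, small differences between the drugs were at the limit of what these data can show.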
